A study of Mus musculus with 2 samples.

Results

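The genes described here are 10 imprinted genes with roles in growth, H19, Igf2, Igf2r, Cdkn1c, Dlk1, Meg3, Peg3, Mest, Plagl1 and Grb10, of the 27998 genes listed in the count tables. They were found by their symbols, and all 10 were listed in both tables. H19 and Igf2 were chosen by their measured levels, since earlier results of these data showed them high in one state of basal keratinocytes (KCs), basal 1, and lower in another, basal 2. Their levels in those 2 states are therefore a description without a test, and the other 8 genes were added as known imprinted genes of growth control. Both libraries came from the epidermis of male C57BL/6J mice at postnatal day 0 that lack a working Chrm3 (Chrm3 knockout, KO), which encodes the M3 receptor for acetylcholine, and 1 single-cell RNA-sequencing library was made from each (called KO mouse 1 and KO mouse 2). The epidermis was lifted off overnight in a separation buffer, and dead cells were removed before capture. The labels name version 1 of the 10x Chromium chemistry and the study's methods version 3.1. Wild-type libraries were not analysed here, so every comparison is between cell states within the KO epidermis.

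Imprinted genes are expressed mainly from the copy inherited from 1 parent. Genes expressed from the father's copy, such as Igf2, Dlk1, Peg3, Mest and Plagl1, are mostly known to promote growth, and several expressed from the mother's copy, such as H19, Igf2r and Cdkn1c, to restrain it. Igf2 encodes a growth factor of fetal tissue that signals through the IGF1 and insulin receptors, whereas the receptor encoded by Igf2r binds the factor and carries it to lysosomes. H19 is a long noncoding RNA whose gene shares enhancers with Igf2 through an imprinting control region between them. Counts of a transcript do not show which parental copy it came from, so imprinting itself was not measured.

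Gene positions were read from GENCODE M21 on GRCm38 (mm10). H19 (ENSMUSG00000000031) lies at chr7:142575529-142578143 on the minus strand, and Igf2 (ENSMUSG00000048583) at chr7:142650766-142666816 on the same strand, with 72622 bases between them. Cdkn1c (chr7:143458339-143461050, minus) and Peg3 (chr7:6703892-6730431, minus) are on the same chromosome. Dlk1 (chr12:109452823-109463336, plus) and Meg3 (chr12:109541001-109571726, plus), a noncoding RNA gene, lie 77664 bases apart. Igf2r is at chr17:12682406-12769664 (minus), Mest at chr6:30723547-30748465 (plus), Plagl1 at chr10:13060504-13131694 (plus) and Grb10 at chr11:11930508-12038683 (minus). Igf2r overlaps Airn, Igf2 overlaps Igf2os and Mest overlaps Copg2, each on the opposite strand. Igf2 also overlaps Gm49394 on its own strand. How UMIs from overlapping stretches were assigned to genes was not examined.

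Both neighbours on chromosome 7 also hold a microRNA gene within their span, and the mature sequences are shown for that reason. The sequences are those of RefSeq on GRCm38.p6, printed 5′ to 3′ with the seed (bases 2 to 8) in capitals. The microRNA miR-675 lies in an annotated exon of 3 of the 7 H19 transcripts (chr7:142577112-142577133 for the 5p arm and chr7:142577078-142577099 for the 3p arm). The microRNA miR-483 lies inside Igf2 in no annotated exon (chr7:142654968-142654989 and chr7:142654932-142654952). All 4 are on the minus strand and their seeds differ from each other. Mature microRNAs are not captured by this assay and no level is given for them.
mmu-miR-675-5p: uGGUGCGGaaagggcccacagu
mmu-miR-675-3p: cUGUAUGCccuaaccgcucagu
mmu-miR-483-5p: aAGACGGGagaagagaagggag
mmu-miR-483-3p: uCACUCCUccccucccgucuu

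RefSeq start sites of 8 of the 10 genes gave 15 promoter windows of 300 bases, 250 before the start and 50 after it. A GC box (GGGCGG, both strands) was found in 8 of the 15, against 35.7% of 32851 such windows of all genes. Mest windows at chr6:30737800-30738099 and chr6:30737803-30738102 overlap and hold the same GC box, so 1 site is counted in both. A CCAAT box (CCAAT, both strands) was found in 3, against 37.4%, and a TATA box (TATAAA, both strands) in 1, against 13.6%. Igf2 was taken for print because Igf2 and H19 had the most alike levels in the epidermis, and it has 4 of these windows. The 250 bases before 1 of its starts (chr7:142657497-142657746, minus strand) are printed, from the window with the most of these boxes. Capitals mark 1 CCAAT box, read on the opposite strand, and 2 GC boxes, as letters that match and not as bound sites. The UMI counts come from transcript ends and do not tell which start was used.
Igf2 upstream window: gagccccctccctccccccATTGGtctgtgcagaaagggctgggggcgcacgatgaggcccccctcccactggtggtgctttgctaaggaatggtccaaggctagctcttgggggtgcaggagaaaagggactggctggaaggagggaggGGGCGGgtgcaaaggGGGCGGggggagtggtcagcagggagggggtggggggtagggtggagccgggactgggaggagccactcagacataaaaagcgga

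After filters on genes and mitochondrial share, KO mouse 1 kept 7607 cells and KO mouse 2 kept 11881, with medians of 10480 and 10577 unique molecular identifiers (UMIs, counts of single transcripts) per cell. The cells formed clusters without any of the 10 genes, and clusters were named from marker genes that exclude them. Of the kept cells, 6660 of 19488 were in clusters that took no name. Cells of the interfollicular epidermis (IFE), 2953 and 5093, were clustered again, and 5898 of these 8046 cells fell into 7 named subtypes. The dermal-like cluster (39 and 69 cells) was named by the mean enrichment of its markers. It held 676 and 571 CPM (UMIs of a gene scaled to a common total) of Col3a1, but also Krt14 at 2342 and 2586 CPM. Chrm3 itself had 13 UMIs (0.137 CPM) in KO mouse 1 and 19 (0.128 CPM) in KO mouse 2, and a UMI does not show whether the transcript held the deleted part. Libraries of the 2 mice shared 34 barcodes among the cells kept.

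H19 and Igf2 were abundant in the IFE and low in every other abundant cell type that took a name. In KO mouse 1, 90.5% of all H19 UMIs were in IFE cells, which were 38.8% of the cells kept, and in KO mouse 2 the shares were 87.2% and 42.9%. For Igf2, IFE cells held 90.9% and 88.4% of the UMIs. H19 stood at 381 CPM in IFE cells of KO mouse 1 and 416 CPM in those of KO mouse 2 (399 ± 25 CPM, SD, n = 2 mice). Igf2 stood at 78.2 and 71.8 CPM (75 ± 4.51 CPM). With cells under 5% mitochondrial UMIs alone, the mean H19 level of IFE cells was 205 CPM, and only 10 basal 1 cells of KO mouse 1 remained under that limit. The median mitochondrial share was 6.43% and 5.83% in basal 1, against 5.92% and 5.41% in the IFE.

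**Figure D1:**
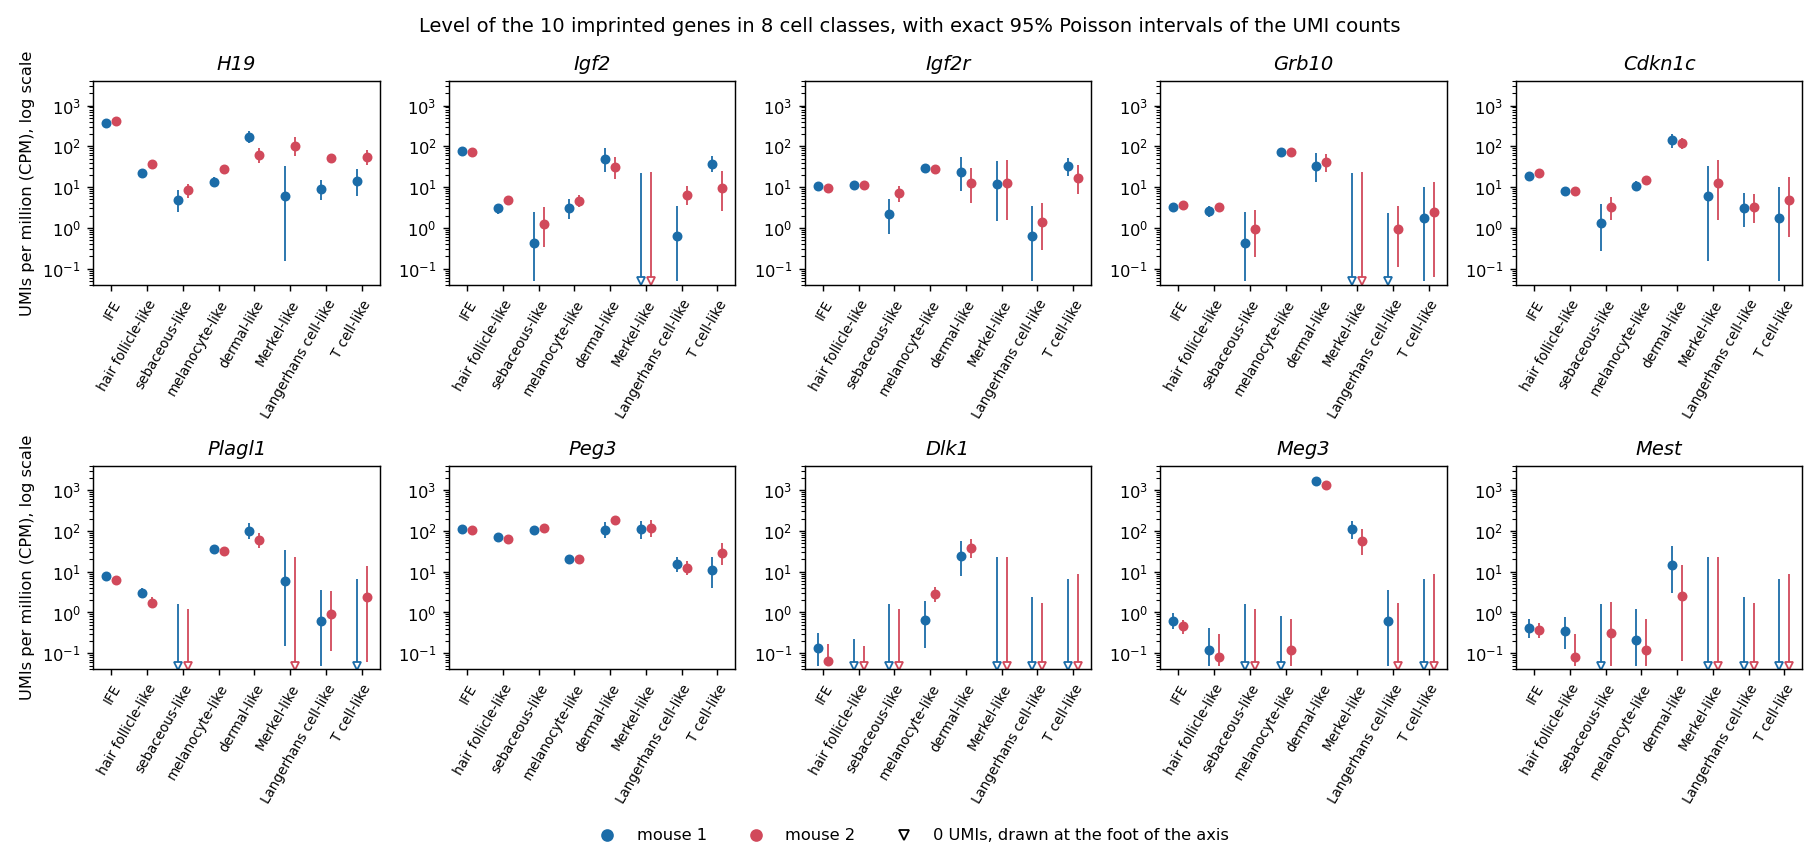
Levels of the 10 genes in CPM (log axis) in IFE cells and 7 other cell types, with 1 point per KO mouse, bars for exact 95% Poisson intervals and open triangles for 0 UMIs. H19 and Igf2 are highest in the IFE, Meg3, Dlk1 and Cdkn1c in dermal-like cells, and Grb10 in melanocyte-like cells.

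Within the IFE, H19 was highest in basal 1, the resting basal KCs marked by genes such as Sparc and Tgfbi. It reached 1147 CPM in KO mouse 1 (5410 UMIs, exact 95% Poisson interval 1117 to 1178) and 1224 CPM in KO mouse 2 (9491 UMIs, 1199 to 1249). In basal 2, resting basal KCs marked by genes such as Sox4 and Lef1, it stood at 229 and 250 CPM. In basal proliferating KCs, which express genes of mitosis, H19 was at 595 and 521 CPM. The levels of basal 1 overlapped with those of no other subtype. Transition 1, cells on the way out of the basal layer, had 477 and 615 CPM, and this range overlapped with that of proliferating KCs. Basal aberrant KCs, a subtype that joins Ptch1-positive with S-phase cells, had 401 and 442 CPM, above basal 2 and below transition 1 in both mice. This order did not hold under the 5% limit, where basal aberrant KCs had 323 and 201 CPM of H19, basal 2 had 211 and 254 CPM and transition 1 had 226 and 297 CPM. H19 was at 255 and 180 CPM in terminally differentiated KCs, a range that overlapped with basal 2, and lowest in differentiated KCs, with 70.0 and 132 CPM.

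Igf2 followed nearly the same order. It stood at 219 and 204 CPM in basal 1 and at 43.3 and 41.0 CPM in basal 2. Between these lay transition 1 with 106 and 117 CPM, basal proliferating with 118 and 85.6 CPM, and basal aberrant with 85.1 and 72.3 CPM. Transition 1 and basal proliferating overlapped, as did terminally differentiated (38.4 and 33.8 CPM) and differentiated KCs (26.7 and 35.0 CPM). In basal 2 against basal 1, 9.61% of 11683 genes tested were called, and the log2 fold changes were −2.40 for H19 (standard error, SE, 0.21) and −2.43 for Igf2 (0.15). These are the contrast on which both genes were picked, and no p-value is given for them. Differences between these subtypes include depth, since the median UMIs per cell were 10587 and 10725 in basal 1 and 7930 and 8029 in basal 2.

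**Figure D2:**
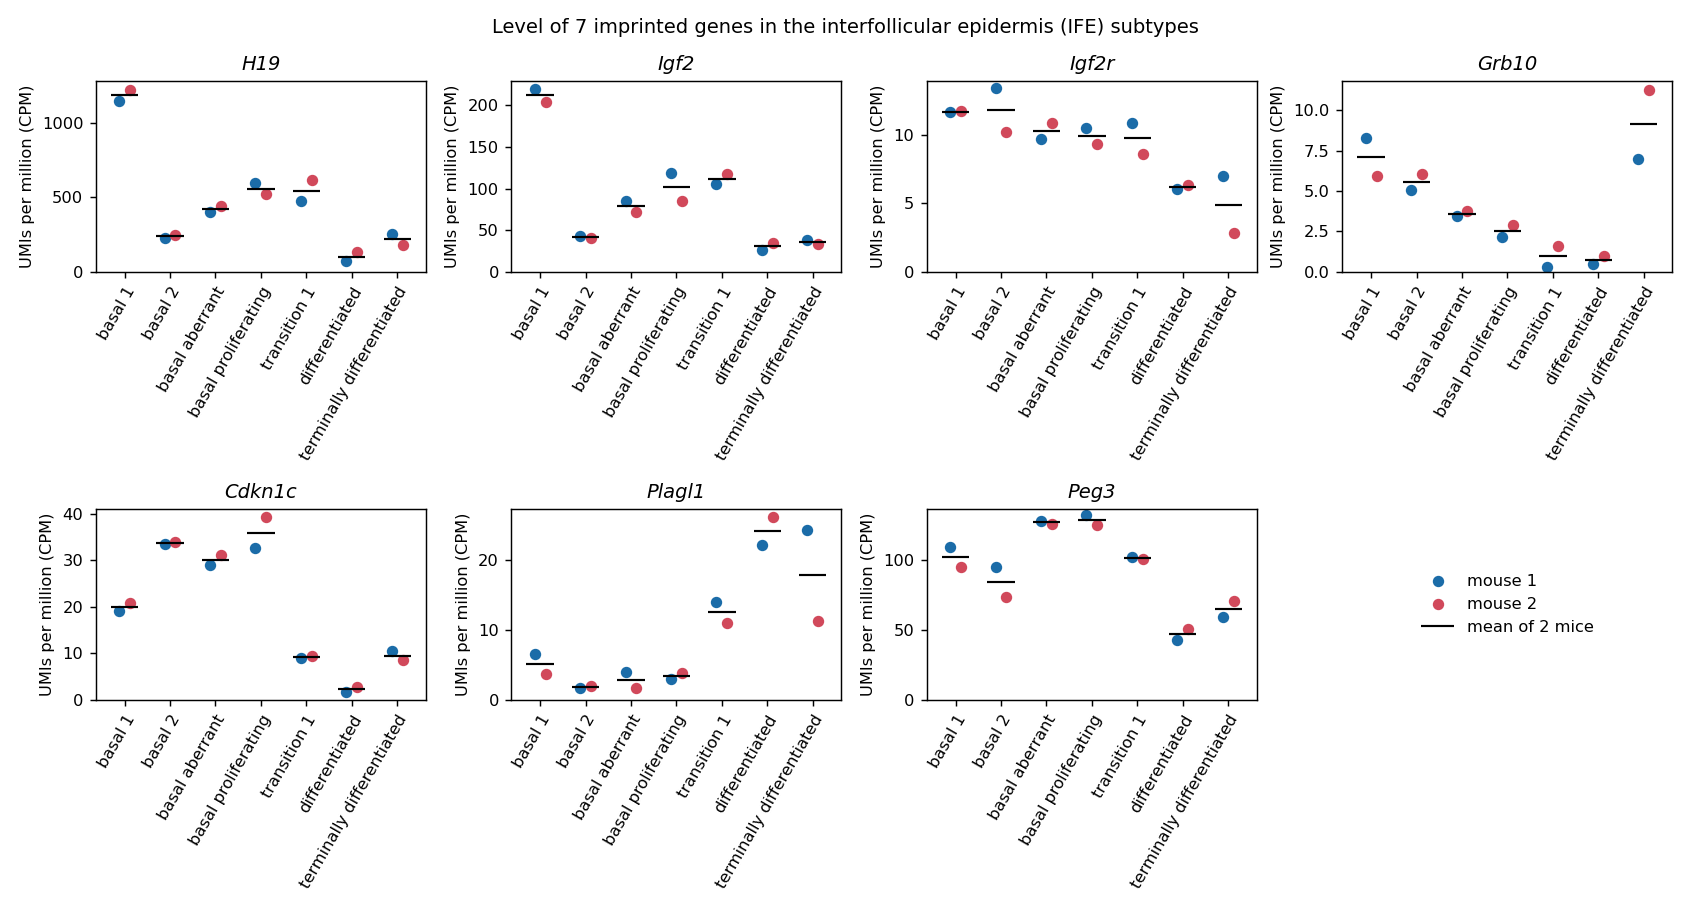
Levels of 7 of the 10 genes in CPM (linear axes from 0, 1 scale per gene) in the 7 named IFE subtypes, with 1 point per KO mouse and a line at the mean. H19 and Igf2 are highest in basal 1 and nearly share their order, whereas Plagl1 is highest on average in differentiated KCs and Cdkn1c in basal 2 and proliferating KCs.

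The subtypes were not uniform for H19. The basal aberrant name covers a cluster led by Ptch1, with 170 and 197 CPM of H19, and a cluster led by S-phase genes such as Rrm2, with 819 and 911 CPM. Igf2 in the same clusters stood at 40.6 and 36.4 CPM and at 166 and 141 CPM, so that both genes were below their basal 2 levels in the first and between basal 2 and basal 1 in the second. The 2 clusters of the proliferating subtype were closer together, at 538 and 491 CPM of H19 and at 727 and 600 CPM. Among IFE clusters that took no name, H19 was low in one led by Ccl27a and Pou3f1 (29.0 and 36.8 CPM) and in one led by Apoe and Lpl (20.4 and 58.2 CPM). A cluster led by interferon-induced genes, with 30 cells, held 531 and 579 CPM. Subtype means therefore average over cell states that differ in H19 by more than the mice do.

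**Figure D3:**
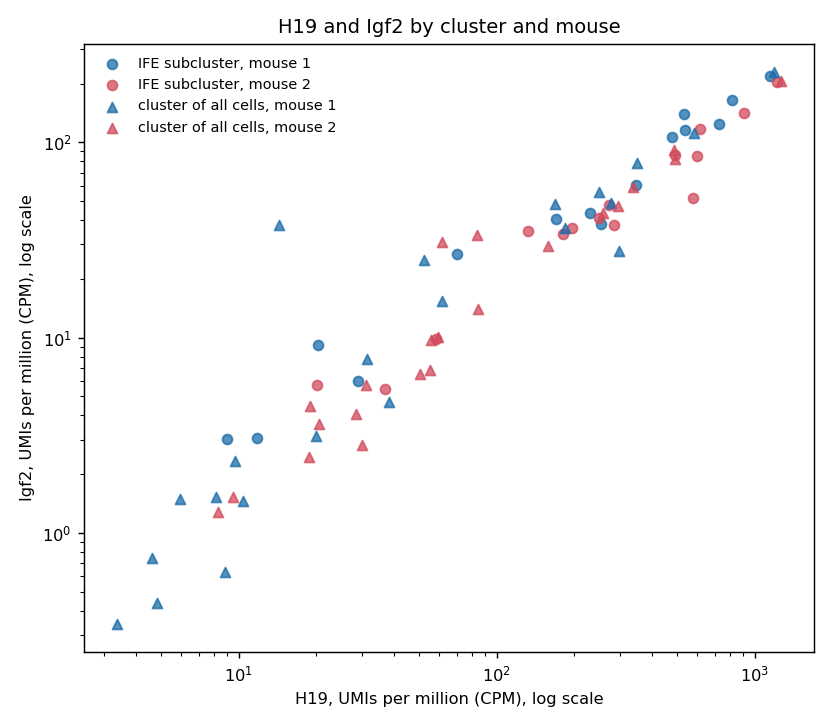
H19 against Igf2 in CPM (both axes log), with 1 point per cluster and KO mouse, circles for IFE subclusters and triangles for clusters of all cells. Points with 0 UMIs of either gene are not drawn, among them the Merkel-like cells of both mice. Among the points drawn, clusters high in H19 are high in Igf2, from 3.39 CPM of H19 in a melanocyte-like cluster. The T cell-like cells of KO mouse 1, with 37.6 CPM of Igf2 at 14.3 CPM of H19, have more Igf2 than clusters of like H19 level.

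The number of H19 UMIs per Igf2 UMI was nearly constant over the basal subtypes while both levels moved about 5-fold. It was 5.23 in KO mouse 1 and 6.00 in KO mouse 2 in basal 1, 5.29 and 6.10 in basal 2, 4.71 and 6.11 in basal aberrant and 5.03 and 6.09 in basal proliferating KCs. Each of these 4 ratios was higher in KO mouse 2. Transition 1 had 4.5 and 5.24, and the ratio was lowest among the larger IFE subtypes in differentiated KCs, with 2.62 and 3.79. Hair follicle-like cells had 7.55 and 7.71. Within 1 library a single source of free RNA would keep its genes in 1 ratio in every cell type, so the ratio does not separate expression from free RNA where both genes are low.

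Across the 14 sums of UMIs per mouse and IFE subtype, the gene with the level most like that of H19 among 11682 other genes was Igf2, and the gene most like Igf2 was H19 (Pearson r of log2 CPM = 0.955 over 14 sums). Next to H19 came Prss23 (r = 0.931), Popdc3 (0.906), Tspo (0.905) and Rock2 (0.903). Next to Igf2 came Tspo (0.947), Uqcrc1 (0.891), 5730508B09Rik (0.885) and Prss23 (0.878). Peg3 was 50th for H19 (r = 0.789) and 58th for Igf2 (0.763). Plagl1 went the other way, with r = −0.383 for H19 and −0.242 for Igf2. H19 and Igf2 were chosen together for a high level in basal 1 and a lower one in basal 2, and both states are among the sums, so their likeness is partly fixed by the choice. The sums share 2 animals and their libraries, so these values describe the order of subtypes and carry no p.

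Nearly every basal 1 cell held H19. A UMI of H19 was counted in 96.9% and 97.3% of basal 1 cells, with medians of 10 and 11 UMIs per cell, and in 46.7% and 53.5% of basal 2 cells. With each cell thinned to 3000 UMIs, the shares were 86.5% and 86.8% in basal 1 and 32.3% and 33.2% in basal 2. Of the thinned cells, 25.4% and 31.0% of basal 1 and 2.81% and 3.13% of basal 2 held 5 UMIs or more. T cell-like cells, only 52 and 38 in number, served as a comparison, at median depths of 9303 and 8486 UMIs. H19 was found in 13.5% and 34.2% of them (5.77% and 13.2% thinned). In Langerhans cell-like cells, with medians of 9639 and 9802 UMIs, it was found in 5.52% and 10.4%. These cells also held Krt14, at 931 and 2669 CPM in T cell-like cells against 10519.5 and 11645 CPM in the IFE. Whether a share near these levels comes from free RNA or from expression was not tested.

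H19 and Igf2 were found together in single cells more often than independent detection would give. In thinned basal 1 cells, 38.2% and 38.4% held both, against 36.5% and 35.3% under independence. The odds ratio of H19 and Igf2 was 1.86 and 3.76. In thinned basal 2 cells, 6.19% and 6.80% held both H19 and Igf2, against 3.09% and 3.54% under independence, with odds ratios of 4.52 and 4.18. Igf2 was found in 19.2% and 20.5% of the thinned basal 2 cells with H19 and in 4.99% and 5.82% of those without. The odds ratio of H19 and Igf2 was above 1 in both mice in basal 1, basal 2, basal aberrant, basal proliferating and transition 1, from 1.86 in basal 1 of KO mouse 1 to 17.1 in proliferating KCs of the same mouse. Basal aberrant KCs join a cluster low in both genes with a cluster high in both, and basal proliferating KCs also join clusters. Such mixing can raise an odds ratio, and co-detection within those clusters was not computed. Over all thinned IFE cells, which mix the subtypes, the odds ratio of H19 and Igf2 was 9.15 and 10.3. Without thinning, it was 15.9 and 14 over IFE cells.

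**Figure D4:**
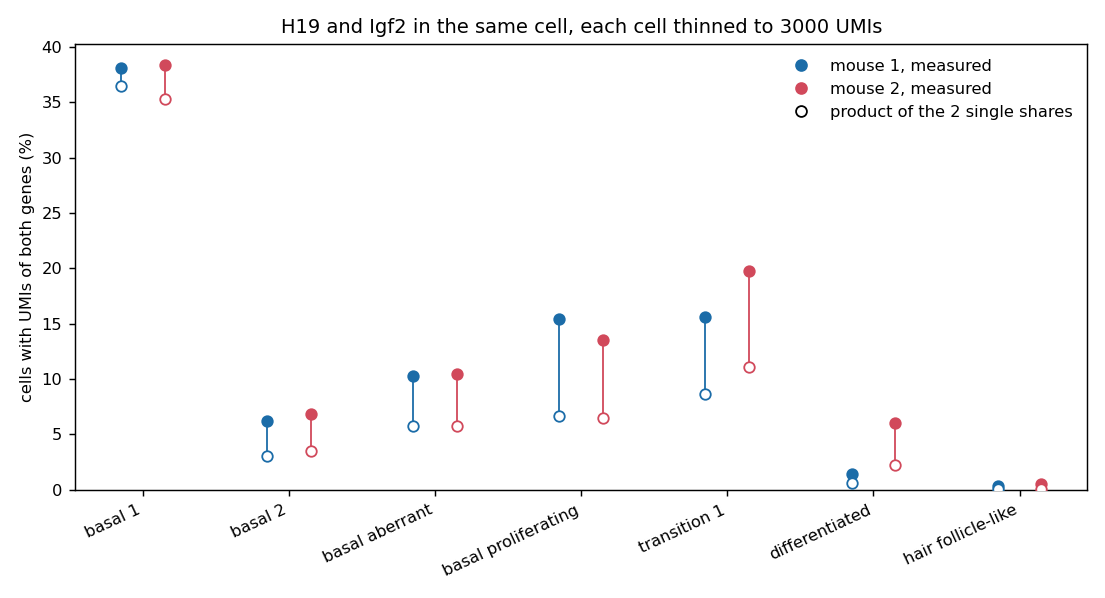
Share of cells in percent with both H19 and Igf2 after thinning to 3000 UMIs per cell (filled points) and the share that independent detection would give (open points), by cell class and KO mouse. In basal 2 the measured shares are 6.19% and 6.80%, against 3.09% and 3.54% under independence.

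Pairs other than H19 and Igf2 had smaller odds ratios. In thinned IFE cells, 15 pairs of the 10 genes had at least 5 expected cells in both mice, the pair H19 and Igf2 included. Of these, 5 had an odds ratio above 1 in both mice, and that pair is one of the 5. Another 2 were below 1 in both mice and 8 on different sides. Over all 15 pairs, that pair included, the medians were 0.948 and 1.16. For H19 and Grb10 the odds ratio was 2.73 and 1.70, for H19 and Cdkn1c 1.13 and 1.2, and for H19 and Peg3 0.897 and 0.855. At least 3 of the 10 genes were found in 16.6% and 14.2% of thinned basal 1 cells and in 3.75% and 2.48% of thinned basal 2 cells. In dermal-like cells these shares were 40.5% and 41.5%. Cells without any of the 10 made up 5.45% and 7.33% of basal 1 and 76.9% and 78.9% of T cell-like cells. These shares count H19 and Igf2, which were picked for a higher level in basal 1 than in basal 2. The difference between basal 1 and basal 2 is therefore partly fixed by the choice, and the other 8 genes were not counted alone.

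The receptor and the growth-restraining genes were ordered differently. Igf2r lay between 8.63 and 13.4 CPM in the 4 basal subtypes and transition 1, where basal 2 (13.4 and 10.3 CPM) and basal 1 (11.7 and 11.7 CPM) overlapped. Cdkn1c, which encodes the cell cycle inhibitor p57, stood at 19.1 and 20.8 CPM in basal 1 and at 33.5 and 34 CPM in basal 2. It was as high in basal proliferating KCs, with 32.6 and 39.2 CPM. The basal 1 and basal 2 levels of Cdkn1c did not overlap (log2 fold change 0.66, SE 0.14, given without a test). Grb10, which encodes an adaptor that binds the insulin and IGF1 receptors and restrains their signalling, was at 8.27 and 5.93 CPM in basal 1 and 5.09 and 6.03 CPM in basal 2. In basal proliferating KCs Grb10 was at 2.15 and 2.93 CPM, below both.

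The zinc finger genes Peg3 and Plagl1 took opposite courses. Peg3 was highest in basal proliferating (132 and 125 CPM) and basal aberrant KCs (128 and 126 CPM), and lower in basal 1 (109 and 94.9 CPM) and basal 2 (95.1 and 73.3 CPM). Differentiated KCs had 43.0 and 50.7 CPM of Peg3, below every other subtype. Plagl1 stood at 6.57 and 3.74 CPM in basal 1, at 1.62 and 1.92 CPM in basal 2, and at 14 and 11 CPM in transition 1. In differentiated KCs Plagl1 reached 22.2 and 26.2 CPM. Dlk1, Meg3 and Mest had at most 13 UMIs in any IFE subtype of a mouse and did not pass the filter on low counts there.

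The tests used 14 sums of UMIs per mouse and subtype, fitted together by quasi-likelihood in edgeR, with p-values adjusted by Benjamini and Hochberg's method over all genes. The comparisons of proliferating, aberrant and differentiated KCs share basal 1 and basal 2 as their reference, and the grouping rests on further genes measured in these cells, so calls are partly given by it. The reference averages basal 1, high in H19 and Igf2, with basal 2, low in both, and a fold of these 2 genes depends on that average. Since both were picked for their level in basal 1, which is part of this reference and of the IFE sums used below, their fold changes are given as a description with no p-value, and calls are counted over the other genes.

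In basal proliferating KCs, 35% of all genes tested were called. Of the 5 other genes tested, Cdkn1c and Peg3 were higher and Grb10 lower, and 2 were not called. With H19 and Igf2 included, the median log2 fold change was −0.03, which is the value of Igf2 itself. It is therefore no measure of the other genes (−0.01 over all genes). Grb10 fell by 1.37 on the log2 scale (SE 0.30, edgeR adjusted p = 0.00246). Peg3 was higher by 0.36 (0.10, edgeR adjusted p = 0.0123) and Cdkn1c by 0.35 (0.12, adjusted p = 0.0295), the latter with adjusted p = 0.0582 in DESeq2. The log2 fold changes of H19 (−0.06, SE 0.17) and Igf2 (−0.03, SE 0.12) were smaller than their SEs. Both lay at levels between those of basal 1 and basal 2.

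In basal aberrant KCs, 12.7% of all genes tested were called, and of the 5 other genes tested Peg3 was higher, Grb10 lower and 3 were not called. With H19 and Igf2 included, the median log2 fold change was −0.40, again the value of Igf2 itself and no measure of the other genes (−0.01 over all genes). Peg3 rose by 0.33 (SE 0.10, edgeR adjusted p = 0.0392) and Grb10 fell by 0.91 (0.28, adjusted p = 0.0459). Grb10 lost its call with cells under 6% mitochondrial UMIs (edgeR adjusted p = 0.165), and Peg3 lost its call at resolution 1.2 (adjusted p = 0.178). The log2 fold change was −0.47 for H19 (SE 0.18) and −0.40 for Igf2 (SE 0.13). As given above, this subtype joins a cluster low in both genes with a cluster high in both.

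Differentiated KCs differed most. In this comparison 58.2% of all genes tested were called, and all 5 other genes tested were, with 4 lower and Plagl1 higher. The median with H19 and Igf2 included was −1.44, again the value of Igf2 itself (−0.01 over all genes). Cdkn1c, at 1.65 and 2.69 CPM, fell by 3.38 (SE 0.19, edgeR adjusted p = 7.51e-10). Grb10 fell by 2.84 (0.40, edgeR adjusted p = 1.77e-05) and rests on 3 and 7 UMIs in differentiated KCs. Peg3 fell by 0.81 (0.11) and Igf2r by 0.73 (0.18), with adjusted p of at most 0.00222 from edgeR's test. Plagl1 was higher by 3.18 on the log2 scale (SE 0.24, edgeR adjusted p = 1.97e-08). The log2 fold change was −2.23 for H19 (SE 0.20) and −1.44 for Igf2 (SE 0.14). The levels of differentiated KCs did not overlap with those of basal 1 or basal 2 for any of these 7 genes.

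**Figure D5:**
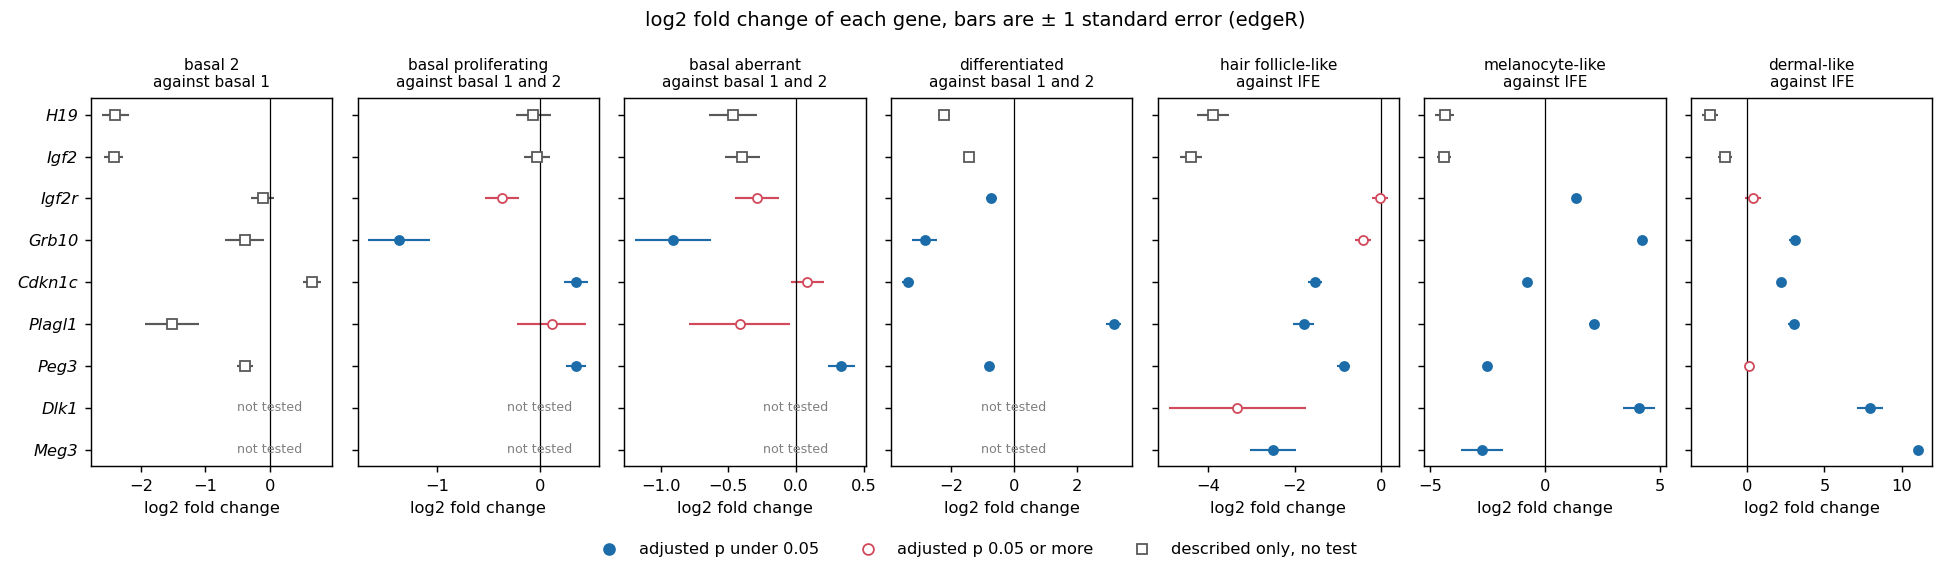
Log2 fold changes of 9 genes in each comparison (a scale of its own per panel), with bars of 1 SE from the edgeR fit, filled points for adjusted p under 0.05, open circles for the rest and squares for values given without a test. In differentiated KCs 6 genes lie below 0 and Plagl1 above it, and in dermal-like cells Meg3 and Dlk1 lie highest.

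Outside the IFE, hair follicle-like cells were low in H19 and Igf2. H19 stood at 22.7 and 38.0 CPM and Igf2 at 3.01 and 4.92 CPM. H19 was found in 4.75% and 7.13% of thinned cells, no more than in the 52 and 38 T cell-like cells. The mean H19 level was 30.3 CPM. It was 115 CPM in dermal-like, 53.9 in Merkel-like, 35.0 in T cell-like, 29.8 in Langerhans cell-like, 20.6 in melanocyte-like and 6.58 in sebaceous-like cells. Hair follicle-like cells overlapped between the mice with T cell-like and Langerhans cell-like cells. In hair follicle-like cells against the IFE, 33.5% of 12470 genes tested were called, and of the 7 other genes tested 4 were lower, 0 higher and 3 not called. The median was −1.79 with H19 and Igf2 included (−0.02 over all genes), and these 2 picked genes, with the lowest fold changes, pull it down. It is no measure of the other genes. The log2 fold change was −3.89 for H19 (SE 0.38) and −4.38 for Igf2 (SE 0.26). Plagl1 (3.01 and 1.74 CPM), Cdkn1c (8.14 and 8.07 CPM) and Peg3 (70.1 and 62.0 CPM) were lower by −1.79, −1.52 and −0.87. Igf2r, at 11.1 CPM in both mice, had a log2 fold change of −0.02 (SE 0.18). Meg3, also called lower, rests on 2 UMIs in each mouse against 23 and 28 in the IFE. Dlk1 had 0 UMIs in these cells, where the floor is 3 UMIs per sum. The hair follicle-like class leaves out clusters that took no name. A cluster without a name that has Sox9, a follicle marker, among its top genes held more Peg3 than the IFE in both mice, as given under other observations. The lower Peg3 level therefore holds for the named class alone.

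Melanocyte-like cells stood apart through Grb10. It reached 74.3 and 72.4 CPM there, against 3.25 and 3.64 CPM in the IFE, and these cells held 58.5% and 57.7% of all Grb10 UMIs while being 5.74% and 6.12% of the cells. Thinned to 3000 UMIs, 22.4% and 22.2% of melanocyte-like cells held Grb10. Plagl1 was at 36.7 and 32.8 CPM, against 7.71 and 6.37 CPM in the IFE, and Igf2r at 29.4 and 27.4 CPM, against 10.4 and 9.38 CPM. In neither gene did the cell types overlap.

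In melanocyte-like cells against the IFE, 50.2% of all genes tested were called, and all 7 other genes tested were, with 4 higher and 3 lower. The median was −0.77 with H19 and Igf2 included (−0.03 over all genes). These 2 picked genes had the lowest fold changes and pull it down. It is therefore no measure of the 7 other genes, of which 4 were higher. The log2 fold changes were 4.24 for Grb10 (SE 0.16, edgeR adjusted p = 1.21e-12), 2.15 for Plagl1 (0.21) and 1.36 for Igf2r (0.19). Dlk1 was called higher on 3 and 23 UMIs, against 5 and 4 in the IFE. Peg3 (20.3 and 20.5 CPM, log2 fold change −2.53) and Cdkn1c (10.6 and 15.3 CPM, −0.77) were lower, and Meg3 was called lower on 0 and 1 UMIs. With cells under 5% mitochondrial UMIs, Cdkn1c (edgeR adjusted p = 0.144), Dlk1 (0.0504) and Meg3 (0.215) lost their calls, and Meg3 also lost its call in DESeq2 (0.0692). H19 stood at 13.6 and 27.6 CPM (log2 fold change −4.36) and Igf2 at 3.03 and 4.63 CPM (−4.37). With the cells of highest doublet score left out, H19 in melanocyte-like cells was 3.59 and 11.4 CPM and Peg3 2.76 and 9.40 CPM, whereas Grb10 was 84.2 and 80.2 CPM. Of the 2 melanocyte-like clusters, one held 3.39 and 9.55 CPM of H19 and the other 31.5 and 59.5 CPM.

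Dermal-like cells held most of the Meg3. It stood at 1695 and 1329 CPM, with 351 and 517 UMIs, and was found in 97.4% and 95.7% of these cells. Being 0.513% and 0.581% of the cells, they held 85.4% and 87.9% of all Meg3 UMIs. Dlk1, which encodes a transmembrane protein related to Notch ligands and lies in the same imprinted domain as Meg3, was at 24.1 and 38.6 CPM and was 0.138 and 0.0650 CPM in the IFE. Cdkn1c reached 140 and 118 CPM, Plagl1 101 and 59.1 CPM and Grb10 33.8 and 41.1 CPM. None of these 5 genes overlapped with its levels in the IFE.

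In dermal-like cells against the IFE, 28.6% of all genes tested were called, with 47.3% of the calls higher, 60% with RLE size factors and 66.4% with DESeq2. Of the 7 other genes tested, 5 were higher, 0 lower and 2 not called. The median was 2.23 with H19 and Igf2 included (−0.21 over all genes), again pulled down by these 2 genes and no measure of the other 7. The log2 fold change was 11.04 for Meg3 (SE 0.21, edgeR adjusted p = 1.94e-14), 7.94 for Dlk1 (0.83), 3.08 for Grb10 (0.38), 3.02 for Plagl1 (0.35) and 2.23 for Cdkn1c (0.24). Peg3 (106 and 185 CPM) and Igf2r (24.1 and 12.9 CPM) were not called. H19 stood at 169 and 61.7 CPM (log2 fold change −2.37, SE 0.52), and 1 cell held 24 of its 35 UMIs in KO mouse 1 and another 10 of 24 in KO mouse 2. With the cells of highest doublet score left out, dermal-like cells held 1 and 5 UMIs of H19. Igf2 stood at 48.3 and 30.8 CPM (log2 fold change −1.41, SE 0.44). Mest had 3 and 1 UMIs in these cells and passed the filter in neither fit.

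In the cell types not tested, values rest on few cells. Merkel-like cells (19 in each mouse) held Meg3 at 109 and 57.2 CPM, from 18 and 9 UMIs, and Peg3 at 109 and 121 CPM. Their mean H19 level was 53.9 CPM (SD 67.7), with 0 UMIs of Igf2 in both mice. Sebaceous-like cells had Peg3 at 104 and 115 CPM, near the 109 and 103 CPM of the IFE, with H19 at 4.83 and 8.34 CPM and no UMI of Plagl1. In Langerhans cell-like cells Peg3 stood at 15.2 and 12.6 CPM, and at 7.39 and 3.51 CPM with the cells of highest doublet score left out. Their H19 level was 8.86 CPM in KO mouse 1 and 50.7 CPM in KO mouse 2, where 1 cell held 47 of the 109 UMIs. Igf2 in T cell-like cells was 37.6 CPM in KO mouse 1, from 21 UMIs, and 9.68 CPM in KO mouse 2, from 4 UMIs.

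The 7 dermal markers had a lower sum in basal 1, where H19 was highest, than in basal 2 or basal proliferating KCs. They summed to 0.636 and 1.03 CPM in basal 1, with 5 and 3 of them at 0, and to 6.02 and 3.46 CPM in basal 2, with 4 at 0 in each mouse. In dermal-like cells they summed to 1492 and 1349 CPM. Basal proliferating KCs had 19.3 and 16.9 CPM. Most of the basal 2 and basal proliferating sums was Col1a2, at 3.47 and 3.21 CPM and at 18.5 and 16.3 CPM, against 0.424 and 0.387 CPM in basal 1. The other markers were at a few UMIs and did not share 1 order. In KO mouse 2, Col1a1 had 3 UMIs in basal 1 and 0 in basal 2. The part of free RNA in these sums was not tested.

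The other genes of the IGF pathway, a list of 14 with receptors, adaptors, binding proteins and RNA-binding proteins, were tested in the same fits. In differentiated KCs, 8 of 12 tested were lower and 0 higher, where 58.2% of all genes were called (median log2 fold change −0.84, against −0.01 over all genes). Igfbp2, which encodes a binding protein of IGF2, stood at 16.0 and 9.63 CPM in differentiated KCs, against 240 and 191 CPM in basal 1 and 126 and 140 CPM in basal 2, and fell by 3.57 on the log2 scale (SE 0.21, edgeR adjusted p = 9.79e-10). Igfbp3 and Igfbp5, 2 further binding proteins, were also lower (−4.72 and −4.75), on at most 1 UMI per mouse in differentiated KCs. In basal proliferating KCs, 2 of 12 were higher and 3 lower, where 35% of all genes were called (median −0.29, against −0.01), and Igfbp7 was higher by 2.72 (SE 0.25), at 25.3 and 18.0 CPM against 4.24 and 4.26 CPM in basal 1. In basal aberrant KCs, 2 of 12 were higher and 0 lower, where 12.7% of all genes were called (median 0.05, against −0.01), Igfbp7 by 1.27 and Igfbp4 by 0.99.

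Against the IFE, hair follicle-like cells had 2 of 14 IGF pathway genes higher and 8 lower, where 33.5% of all genes were called (median −0.53, against −0.02). Melanocyte-like cells had 0 higher and 7 lower, a share near the 50.2% of all genes called (median −1.08, against −0.03). Dermal-like cells had 4 higher and 3 lower, where 28.6% of all genes were called (median 0.05, against −0.21). Igfbp2 was lower in all 3, with log2 fold changes of −3.43, −3.71 and −2.71. Igfbp4 went up in dermal-like cells, at 739 and 581 CPM against 91.0 and 69.6 CPM in the IFE (2.61, SE 0.18, edgeR adjusted p = 6.96e-09). Igf1r, the receptor through which IGF2 signals, was at 68.4 and 53.7 CPM in the IFE and 32.4 and 23.1 CPM in differentiated KCs.

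Of 35 other imprinted genes, 19 were tested in the IFE. In basal proliferating KCs 4 were higher and 7 lower (median −0.23), where 35% of all genes were called. In basal aberrant KCs 2 were higher and 1 lower (median 0.00, 12.7% of all genes called), and in differentiated KCs 4 and 5 (median −0.23, 58.2% of all genes called). The median of all genes was −0.01 in each. In proliferating KCs the largest called fold change was that of Ndn, higher by 3.17 (SE 0.62), and Cobl was higher by 1.16. In basal aberrant KCs Ndn was higher by 3.00 (SE 0.63) and Snrpn by 1.21, and Osbpl5 was lower (−0.49). Ascl2 and Phlda2, which lie in the imprinted region next to H19 and Igf2, were lower in proliferating KCs by −1.74 and −1.26, as was Slc22a18 (−1.18). Ascl2 is a transcription factor gene known from placenta and intestinal stem cells, and Phlda2 a growth-restraining gene of the placenta. In differentiated KCs Cobl, an actin nucleator gene, was higher (26.8 and 20.7 CPM against 6.15 and 4.13 CPM in basal 1, log2 fold change 2.78), as was Osbpl5 (1.23), and Sgce was lower (−2.45).

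Across cell types 21 of the 35 were tested. In hair follicle-like cells 1 was higher and 7 lower (median −0.38, against −0.02 and 33.5% of all genes called), with Ascl2, Slc22a18 and Phlda2 lower by −2.08, −2.06 and −2.06. In melanocyte-like cells 7 were higher and 9 lower (median 0.00, against −0.03 and 50.2% of all genes called). Ascl2 and Phlda2 were lower by −3.73 and −3.47. Peg12 was higher (6.91 and 5.97 CPM, against 1 UMI in the IFE of KO mouse 1), as was Ndn (7.99 and 6.82 CPM against 1.27 and 1.12 CPM, log2 fold change 2.46). In dermal-like cells 7 were higher and 2 lower (median 0.52, against −0.21 and 28.6% of all genes called), and Ndn, a growth-restraining gene of the Prader-Willi region, stood at 96.6 and 72.0 CPM (5.69, SE 0.32, edgeR adjusted p = 1.07e-09).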

How the data were processed

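The epidermis of 2 mice with the Chrm3 KO had been profiled by single-cell RNA sequencing. Per the labels and the study's methods, the authors ran Cell Ranger 3.0.2 against mm10 and deposited raw UMI counts per gene and barcode, neither normalized nor filtered. The tables held 109756784 UMIs in 10816 barcodes for KO mouse 1 and 166441732 in 15867 for KO mouse 2. As in the study, a cell was kept if it had between 900 and 7700 genes and a mitochondrial share under 10%. Counts were log-normalized and integrated over 30 dimensions from 2000 variable genes (Seurat 5.3.0 in R 4.3.3), and clustered at resolution 0.8. The 10 members, the 35 other imprinted genes and the 14 IGF pathway genes entered neither the variable genes nor the naming. A name needed at least 3 enriched markers, and these limits on names were chosen with the clusters in view. The marker lists of the subtypes come partly from the study's own markers of these samples. Members and lists were chosen with earlier results of these data known.

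UMI counts were summed per mouse and cell class of at least 20 cells in each mouse, since cells are not replicates. The sums of 7 IFE subtypes (14 sums, 11683 genes) and of 7 cell types (14 sums, 12470 genes) were each fitted in edgeR 4.0.16 (filterByExpr, TMM, F-test by quasi-likelihood, Benjamini-Hochberg threshold 0.05), with 7 residual degrees of freedom. The SE was taken from the fold change and F. CPM were not divided by gene length, since each transcript gives 1 tag. Intervals cover counting error only, and the limit of a count of 0 was 3 UMIs per sum. In tests on simulated data, the share of changed genes recovered was 95.5% among 11118 genes for differentiated KCs and 61% among 10854 genes for dermal-like cells. These shares hold only for changes of the size and spread that were simulated and are no general measure of power. They do not tell how often small folds, such as those of Peg3 and Cdkn1c in basal proliferating KCs, would be recovered. Equal numbers mark 1 animal, so the sums are paired, and the differences between the mice correlated between subtypes with r from −0.0104 to 0.311 (21 pairs, median 0.151).

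All 10 members were named, with up to 5 called genes of largest fold from each list in each comparison and the 5 genes most like H19 and Igf2 by Pearson r. Scrublet (scanpy 1.11.5) scored doublets, which were kept, since the study states no removal. Its own limit marked 2 cells in the first mouse and 416 in the second, so the highest 5% of scores in each mouse (380 and 594 cells) were left out as an alternative. For detection, cells were thinned to 3000 UMIs, which left out 85 and 220 shallower cells. The other alternatives were DESeq2 1.42.0, the mouse as a block, RLE size factors, no filter on low counts, mitochondrial limits of 5% and 6%, and resolution 1.2.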

Additional observations from a re-analysis of the deposited data

Results flagged for a closer look

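The barcodes removed by the filters entered no comparison, and 9 of the 10 genes were counted there in both mice above the limit of 3 UMIs. H19 stood at 68.5 CPM in KO mouse 1 and 95.5 CPM in KO mouse 2 in these barcodes, against 161 and 197 CPM in the cells kept. Igf2 was also lower than in kept cells, with 15.4 and 20.3 CPM against 32.9 and 33.6 CPM, as were Cdkn1c, with 8.57 and 7.73 CPM against 14.4 and 16.2 CPM, and Grb10, with 4.28 and 4.26 CPM against 6.19 and 6.93 CPM. The next 4 genes were higher in both mice than in kept cells. These were Igf2r with 21.8 and 18.9 CPM against 12.2 and 11.2 CPM, Plagl1 with 13.2 and 17.6 CPM against 5.89 and 5.23 CPM, Meg3 with 5.71 and 7.22 CPM against 4.32 and 3.95 CPM, and Mest with 0.816 and 0.511 CPM against 0.4 and 0.249 CPM. Peg3 was at 117 and 84.0 CPM, against 105 and 93.3 CPM, and so on different sides in the 2 mice. These differences were not tested. With 2 mice in each group, no library could be tested for standing apart from its group.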

How the results depend on the processing

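The limit on mitochondrial UMIs moved the most values. Genes called in basal 2 against basal 1 were 1123 and fell to 559 with cells under 6% mitochondrial UMIs, a limit chosen after the data were seen. With cells under 5%, genes called were 1745 in place of 4182 for hair follicle-like cells and 3881 in place of 6262 for melanocyte-like cells, and the mean H19 level of IFE cells was 205 CPM in place of 399. With the mouse as a replicate block, 2395 genes were called in basal 2 against basal 1, and 2879 in basal aberrant KCs in place of 1486, with 54.9% of these calls higher in place of 68.6%. In basal aberrant KCs the log2 fold changes of H19 and Igf2 with the block were −0.47 and −0.41. Over the 6 comparisons with a test, 36 of 48 results on the 10 genes were called with the block in place of 34. These counts include H19 and Igf2, whose results are not independent of their choice, and are a description. DESeq2 called 30, and the other settings run for all 6 called 33 to 36. Thinned to 3000 UMIs, the odds ratio of H19 and Igf2 in IFE cells was 9.71 in place of 15 (means of the mice). Over single mice it was 14 to 15.9, and H19 in IFE cells was 381 to 416 CPM.

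Outside basal 2 against basal 1, no fold change of the 10 genes that was called changed its sign under an alternative. Sign changes of fold changes that were not called were not counted. Of the fold changes of single genes under alternatives with a test, 332 kept their side of the threshold, 9 gained a call and 15 lost one. These counts include H19 and Igf2, and the 9 gains were all of these genes in basal aberrant KCs. With 1 mouse left out, 20 of these fold changes moved and 76 did not. Each shift was compared with the SD of the same single-mouse fold changes. Not moving was therefore largely fixed in advance and is no measure of how alike the mice were. Levels were compared with the highest Scrublet scores removed, with cells under 5% mitochondrial UMIs and with 1 mouse left out. Over all these settings together, 163 levels moved by at least the SD between the mice and 433 did not. Leaving out 1 of 2 mice shifts a mean by less than that SD, so those cases count as not moved unless the SD was 0. The calls lost and not named above, besides those of H19 and Igf2, were of Cdkn1c, Grb10 and Meg3. Cdkn1c lost its call in proliferating KCs (edgeR adjusted p = 0.131 under 6% and 0.08 at resolution 1.2). Grb10 lost its call in basal aberrant KCs with the highest Scrublet scores removed (edgeR adjusted p = 0.0528), and Meg3 in melanocyte-like cells under 6% (0.0759). In dermal-like cells the log2 fold change of H19 was −2.05 in DESeq2, against −2.37. That of Igf2 was −1.20 in DESeq2, −1.23 with RLE size factors and −0.83 under 5%, against −1.41. In basal aberrant KCs the log2 fold change of H19 was −0.73 at resolution 1.2 and −0.72 under 6%, and that of Igf2 −0.57 and −0.69. These are given without a test. The causes were not tested. Levels were computed under the 5% limit, but the subtypes were not fitted under it, since 10 basal 1 cells remained in KO mouse 1, resolution 1.2 gave no differentiated subtype, and counts of calls without 1 mouse could not be had. The 39 and 69 dermal-like cells limit what can be said of genes at a few UMIs there, as do the low counts of Dlk1, Meg3 and Mest in the IFE.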

Other observations

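Peg3 had its highest level in a cluster that took no name. In this cluster, led by Ncam1 and Bdnf, Peg3 stood at 298 CPM in KO mouse 1 and 239 CPM in KO mouse 2, against 109 and 103 CPM in the IFE. A further cluster without a name, led by Sfrp1, Tbx1 and Lgr5, held 165 and 131 CPM of Peg3, and an IFE cluster led by Apoe and Lpl held 221 and 175 CPM. H19 was low in all 3, at 8.16 and 20.5 CPM, at 10.4 and 18.7 CPM and at 20.4 and 58.2 CPM. In the other direction, the dividing cells were split. A cluster of dividing cells without a name held 9.71 and 28.5 CPM of H19, whereas basal proliferating KCs of the IFE held 595 and 521 CPM. In UMIs of H19, that cluster had 142 and 577 in 866 and 1167 cells. Another cluster without a name, led by the mitosis genes Cdc20 and Cenpa, had 666 and 1374 in 362 and 534 cells. Low H19 was therefore not shared by all cycling clusters without a name. These clusters were singled out after their values were seen, and the differences were not tested.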
